A study of Mus musculus with 2 samples.

Results

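Mural cells, the pericytes and smooth muscle cells that wrap small vessels, were looked for among stromal vascular cells of mouse epididymal white adipose tissue (eWAT). A barcode was taken as mural where its unique molecular identifiers (UMIs, each standing for 1 captured transcript) of Rgs5, Kcnj8, Abcc9 and Notch3 summed to at least 5. It also had to hold at least 200 genes, fewer than 10 UMIs of the fibroblast gene Dcn and fewer than 10 of the macrophage genes C1qa, C1qb and C1qc. This took 154 of 2174 barcodes, 56 from the low-fat diet (LFD) library and 98 from the high-fat diet (HFD) library. Because the 4 genes chose the members, their levels are given as a description. Of the 154 mural barcodes, 143 held at least 3 UMIs of the endothelial junction genes Cdh5 and Cldn5, and are called mixed below. The other 11 held fewer than 3 and are called low-endothelial.

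Pericytes lie within the basement membrane that they share with capillary endothelium. Endothelial cells recruit them through PDGF-B, which acts on the receptor PDGFRβ on the pericyte, and NOTCH3 on mural cells is activated by ligands on the endothelium. KCNJ8 and ABCC9 together form the vascular KATP channel, a potassium channel that couples the energy state of the cell to its membrane potential. RGS5 dampens signalling through G protein-coupled receptors. In adipose tissue, cells along vessels that carry PDGFRβ have been studied as a source of new adipocytes and of matrix.

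The cells came from C57BL/6J male mice fed LFD or HFD for 24 wk from 6 wk of age. The title and the treatment field of each sample name its diet, while a longer protocol note shared by both samples names the low-fat diet for each, and the diet was taken from the former. There was 1 library for each diet, and how many mice went into a library is not given in the sources used here. There were therefore no replicates between diets, and no test was made. Values carry 95% intervals that cover counting error only, exact Poisson for levels, exact binomial for shares and exact conditional binomial for ratios between diets. The LFD library held 7356278 UMIs over 1113 barcodes and the HFD library 8412325 UMIs over 1144 barcodes, with medians of 6197 and 6486 UMIs per barcode and 0 barcode sequences in common.

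The mural label held only in part. Pdgfrb, the defining receptor that the rule did not use, was seen in 104 of 143 mixed barcodes (72.7%) and in 0 of 83 T cell barcodes. Levels (CPM) relate the UMIs of a gene to every UMI in the pooled barcodes. The level of Pdgfrb was 249 CPM (226 to 274) in mixed barcodes, 860 (545 to 1290) in low-endothelial ones, 111 in fibroblast and 5.61 in endothelial barcodes. Endothelial transcripts were present beside it in nearly every member. In mixed barcodes, 6 endothelial markers that no rule used (Pecam1, Kdr, Tie1, Egfl7, Gpihbp1 and Emcn) lay at a median of 76.2% of their level in endothelial barcodes, with a range of 64.9 to 86.5%. Over the same barcodes, 8 pericyte genes outside the rule (Pdgfrb, Higd1b, Cox4i2, Ndufa4l2, Vtn, Gucy1a1, Gucy1b1 and Cspg4, picked from a longer list after their values had been seen) lay at a median of 29.6% of their level in low-endothelial barcodes. Cspg4, at 204%, rests on 1 UMI in the low-endothelial set. Whether a mixed barcode held attached cells, separate cells caught in 1 droplet or free RNA was not tested.

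**Figure D1:**
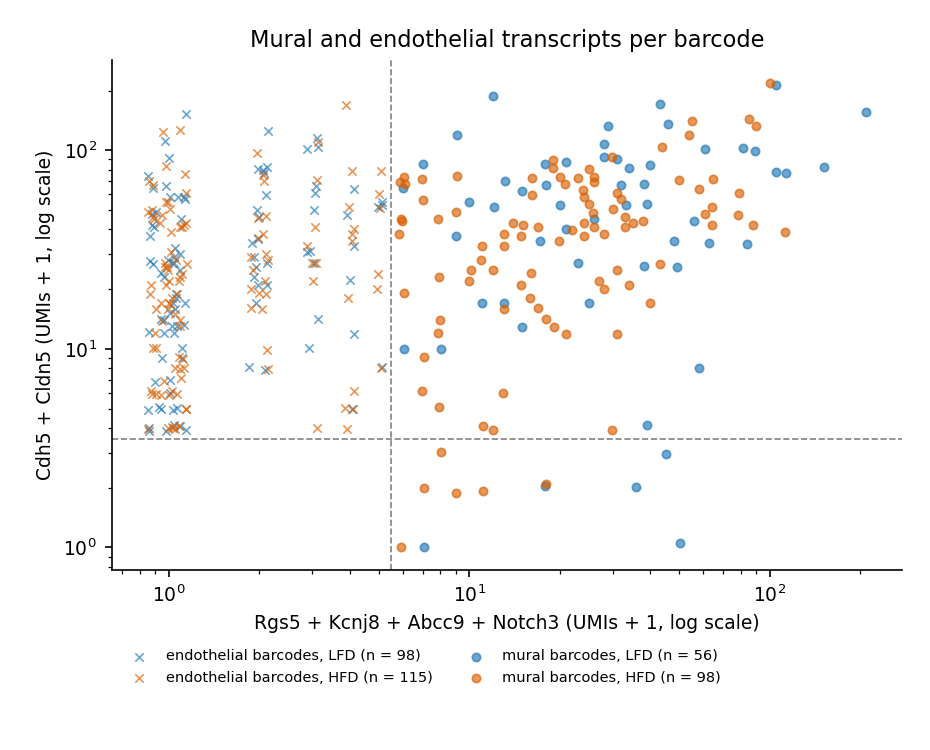
UMIs of Cdh5 and Cldn5 (vertical axis) against UMIs of Rgs5, Kcnj8, Abcc9 and Notch3 (horizontal axis), on log scales. Each point is 1 mural or endothelial barcode. Of the 154 mural barcodes, 143 lie at or past 3 endothelial UMIs and 11 below.

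Mixed barcodes were deep. Their median was 10004 UMIs, against 2818 in low-endothelial, 3739 in endothelial, 8242.5 in fibroblast and 2675 in T cell barcodes. When each barcode was thinned to 1000 UMIs, 70.5% of mural barcodes (62.5 to 77.7%) still held at least 3 endothelial UMIs, against 92.9% (87.6 to 96.4%) unthinned. Endothelial UMIs also met the thresholds of other cell types in some barcodes. Of 385 barcodes with at least 3 endothelial UMIs, 166 (43.1%, 38.1 to 48.2%) reached the mural threshold, whereas 18 (4.68%, 2.79 to 7.29%) reached the fibroblast and 13 (3.38%, 1.81 to 5.70%) the macrophage threshold. The T cell threshold was reached by 0, which allows a share of up to 0.954%. The thresholds differ, at 5 UMIs over 4 genes for mural, 10 UMIs of Dcn for fibroblast and 10 UMIs of C1q genes for macrophage barcodes, so these shares are not like for like. The limits on Dcn and C1q left out 26 further barcodes with at least 5 mural UMIs, of which 23 also held endothelial UMIs. Scrublet, a doublet caller, marked 21 LFD and 26 HFD barcodes and 0 of the 154 members.

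Within the 143 mixed barcodes, both the mural and the endothelial share of UMIs varied widely. Per 10000 UMIs, the 4 mural genes ranged from 1.73 to 88.0 with a median of 23.1, and Cdh5 with Cldn5 from 4.2 to 113 with a median of 42.6. These are the counts that chose and split the members.

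Kcnj8 and Abcc9 are neighbours in the genome. On GRCm38, Kcnj8 spans chr6:142564837-142571614 and Abcc9 spans chr6:142587862-142702315, both on the minus strand with 16247 bases between them. Rgs5 lies at chr1:169655501-169695813 on the plus strand and Notch3 at chr17:32120820-32166852 on the minus strand. The promoter windows of 3 rule genes, from 250 bases before to 50 bases after the RefSeq start (GRCm38.p6), are shown because these genes chose the members and were seen together. They lie at chr1:169655251-169655550 on the plus strand for Rgs5, and on the minus strand at chr6:142571565-142571864 for Kcnj8 and chr6:142702225-142702524 for Abcc9. Capitals mark each match to TGGGAA, the core letters bound by the Notch effector RBPJ.
Rgs5: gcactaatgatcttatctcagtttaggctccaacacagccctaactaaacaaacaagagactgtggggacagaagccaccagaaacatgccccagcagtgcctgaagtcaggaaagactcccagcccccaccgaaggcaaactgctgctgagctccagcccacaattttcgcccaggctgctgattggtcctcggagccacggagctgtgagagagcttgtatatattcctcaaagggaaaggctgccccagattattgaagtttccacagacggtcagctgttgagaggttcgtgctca
Kcnj8: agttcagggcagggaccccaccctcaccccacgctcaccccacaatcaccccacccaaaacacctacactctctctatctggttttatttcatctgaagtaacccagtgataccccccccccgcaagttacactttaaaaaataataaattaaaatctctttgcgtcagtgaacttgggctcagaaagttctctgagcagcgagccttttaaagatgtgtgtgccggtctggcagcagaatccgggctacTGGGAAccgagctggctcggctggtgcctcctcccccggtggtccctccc
Abcc9: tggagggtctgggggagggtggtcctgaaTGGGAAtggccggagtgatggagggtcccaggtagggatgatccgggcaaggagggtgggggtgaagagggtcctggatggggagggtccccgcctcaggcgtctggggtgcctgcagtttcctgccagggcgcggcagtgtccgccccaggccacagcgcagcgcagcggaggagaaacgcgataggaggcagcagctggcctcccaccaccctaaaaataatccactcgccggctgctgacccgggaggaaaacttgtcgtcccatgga
Searched on both strands, the Kcnj8 and Abcc9 windows each held 1 match to TGGGAA, that of Kcnj8 beginning at the annotated start, and the Rgs5 and Notch3 windows held 0. Among all 32851 promoter windows, 25.6% held such a match. The letters ACGTG, the core of the hypoxia response element, were found 2 times in the Notch3 window and in none of the other 3, against 19.6% of all windows. A CArG box, the motif of serum response factor, and TATAAA were found in none of the 4, against 1.63 and 13.6% of all windows. These matches describe letters only.

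Members were then split by how many of the 4 rule genes they held. The same counts chose the members, and the 8 further pericyte genes were picked after their values had been seen, so the split is a description. Depth differed too, with medians of 6896, 5120, 6863 and 11405 UMIs for 1, 2, 3 and 4 rule genes. The 24 members with a single rule gene, which was Rgs5 in 23 of them, held 0.700 UMIs of the 8 further pericyte genes per 10000 UMIs, close to the 0.692 of endothelial barcodes. Members with 2 rule genes (15 barcodes) held 3.51, those with 3 (28 barcodes) 18.5 and those with all 4 (87 barcodes) 20.5. The low-endothelial barcodes held 54.6, fibroblast barcodes 2.11, macrophage barcodes 0.0295 and T cell barcodes 0.0283. Overall 111 members carried at least 5 UMIs of the 8 genes and 20 carried 0. At the threshold itself, the 10 members with exactly 5 rule UMIs held 1.55 per 10000, and the 7 with 6 held 2.05. Just outside, the 12 barcodes with 4 rule UMIs held 1.32 and the 20 with 3 held 3.93, with 20 of the 39 UMIs behind the last value in 1 barcode.

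**Figure D2:**
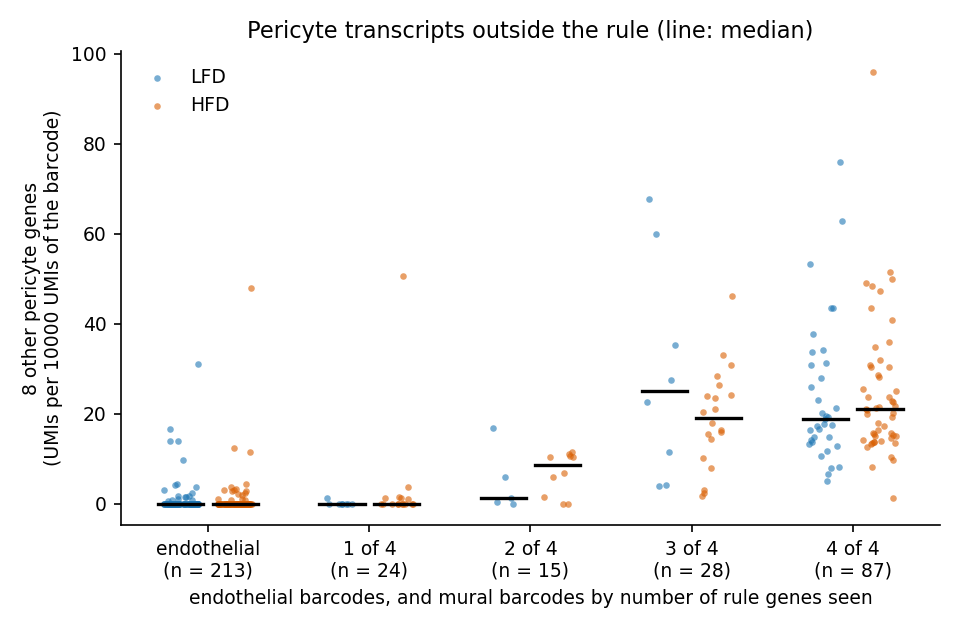
UMIs of 8 pericyte genes outside the rule per 10000 UMIs (vertical axis), each point being 1 barcode. The horizontal axis holds endothelial barcodes, then members with 1, 2, 3 or 4 of the rule genes. Within each group LFD and HFD stand side by side, each with a line at its own median. Members with 3 or 4 rule genes, pooled at 18.5 and 20.5, sit above those with 1 or 2, pooled at 0.700 and 3.51.

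The rule genes were present at high levels in both sets of members. Rgs5 was seen in 142 of 143 mixed barcodes at 1755 CPM (1693 to 1819) and in all 11 low-endothelial barcodes at 5083 CPM (4264 to 6012). It was also seen in 80 of 213 endothelial barcodes (37.6%) at 141 CPM, all of them below the mural threshold, and in 1.20% of T cell barcodes. Kcnj8, the pore of the KATP channel, had 370 CPM in mixed, 1009 in low-endothelial and 3.74 in endothelial barcodes. Abcc9, its regulatory subunit, had 357, 1121 and 7.48 CPM in the same sets. The paralogs of these subunits in pancreatic β cells, Kcnj11 and Abcc8, had 0 UMIs in each set. Notch3 had 189 CPM in mixed, 411 in low-endothelial and 3.74 in endothelial barcodes. All 4 levels in endothelial barcodes were held down by the rule, which put barcodes with 5 such UMIs among the members.

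Mixed barcodes were then compared with endothelial barcodes to see what accompanied the rule genes. This comparison was added after the counts had been seen, because only 11 members lacked endothelial UMIs. It was made on CPM pooled over barcodes with 20 CPM added to each side, among genes with at least 50 UMIs. Of 6603 genes, 174 (2.64%) were at least 2-fold higher in mixed barcodes and 9 (0.136%) at least 2-fold lower, and the median log2 ratio was 0.03. Of the 35 pericyte genes outside the rule, 24 had 50 UMIs over both sets, of which 19 were at least 2-fold higher and 0 lower, with a median log2 ratio of 1.89. The UMI limit in part sets such counts, since genes such as Cspg4 (129 and 0 UMIs), Foxs1 (57 and 0) and Rasl12 (55 and 0) passed it through mixed barcodes alone. Since both sets were cut from the same counts, these counts describe the sets.

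Pericyte genes differed in how far they set the members apart. Aspn, a small proteoglycan, had 379 CPM in mixed and 5.61 in endothelial barcodes, a log2 ratio of 3.96. Gucy1a1 and Gucy1b1, the subunits of soluble guanylate cyclase (the nitric oxide receptor), had log2 ratios of 3.30 and 2.44, and Pdgfrb 3.40. Vtn, which encodes vitronectin, had 3.08, and Steap4, a metalloreductase, 3.01. Cspg4, the NG2 proteoglycan, had 76.1 CPM in mixed barcodes and 0 UMIs in endothelial ones. Lower down, Art3 (255 against 90.7 CPM) and the transcription factor Ebf1 (500 against 274 CPM) had ratios of 1.31 and 0.82. Some listed pericyte genes were as high in endothelial barcodes. Epas1, which encodes HIF-2α, had 784 and 731 CPM, and Ednrb, an endothelin receptor, had 298 and 391 CPM with 0 UMIs in low-endothelial barcodes.

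**Figure D3:**
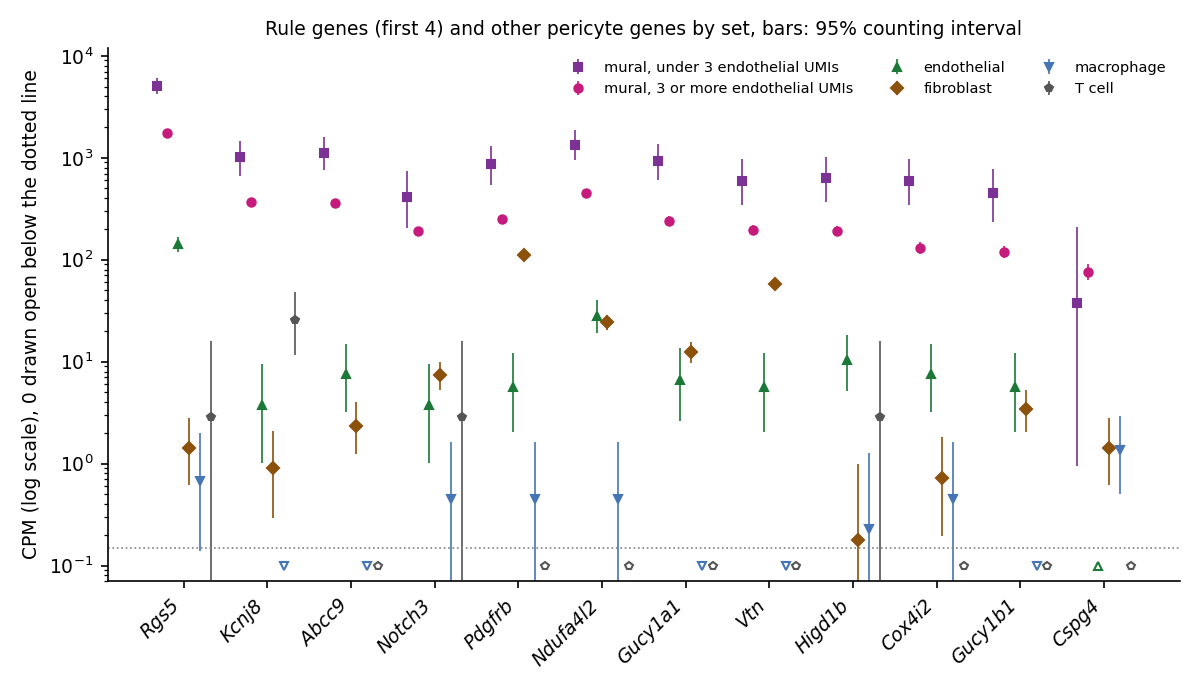
CPM on a log scale (vertical axis) of the 4 rule genes and 8 further pericyte genes (horizontal axis) in mixed, low-endothelial, endothelial, fibroblast, macrophage and T cell barcodes, with 95% counting intervals and open symbols for 0. For Rgs5 the low-endothelial (5083) and mixed (1755) points stand above the endothelial point (141), and Pdgfrb shows the order 860, 249, 111 and 5.61 over low-endothelial, mixed, fibroblast and endothelial barcodes.

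In 3 mitochondrial gene pairs, members held more of the form known from mural cells. Cox4i2 encodes the hypoxia-responsive form of a subunit of cytochrome c oxidase whose common form is COX4I1, Ndufa4l2 is the paralog of the respiratory chain gene Ndufa4, and Higd1b that of Higd1a. Cox4i2 made up 39.0% of the UMIs of its pair (24.2 to 55.5%) in low-endothelial barcodes, 14.4% (12.6 to 16.2%) in mixed, 0.878% in endothelial and 0.105% in fibroblast barcodes. For Ndufa4l2 the share was 80.0% (65.4 to 90.4%), 62.3% (59.5 to 65%), 7.25 and 6.32% in the same order. For Higd1b it was 89.5% (66.9 to 98.7%), 73.6% (69.3 to 77.7%), 11.1 and 0.265%. In each pair the share was higher in mixed than in endothelial barcodes with intervals that did not meet. Of the list of KATP and respiratory genes, 7 were tested, at a median log2 ratio of 2.31. In mixed barcodes 4 were at least 2-fold higher, against 2.64% of all genes. These were Cox4i2, Ndufa4l2, Higd1b and Rgs4, a relative of Rgs5 that the list of vessel tone genes below also holds. No KATP gene was tested, since Kcnj8 and Abcc9 are rule genes and Kcnj11 and Abcc8 had 0 UMIs. The common forms were not 2-fold higher, with Cox4i1 at 774 and 845 CPM and Ndufa4 at 272 and 359 CPM in mixed and endothelial barcodes.

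**Figure D4:**
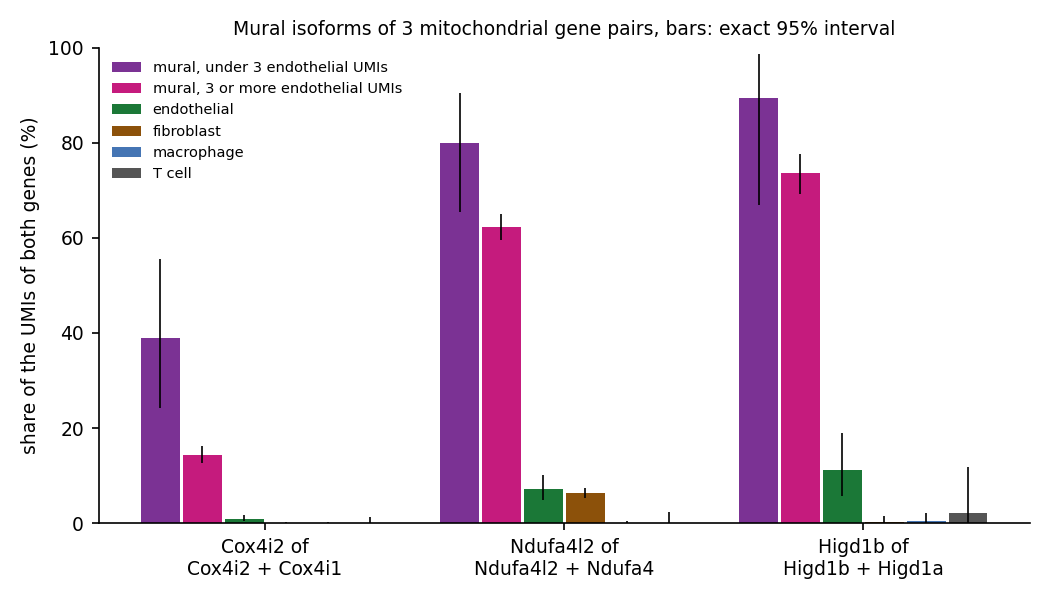
Share in percent (vertical axis) that Cox4i2, Ndufa4l2 and Higd1b take of the UMIs of their pair in low-endothelial, mixed, endothelial, fibroblast, macrophage and T cell barcodes, with exact 95% intervals. Ndufa4l2 goes from 80.0% in low-endothelial and 62.3% in mixed to 7.25% in endothelial barcodes.

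Contractile genes set the members apart in part. Of the smooth muscle genes, 10 of 19 tested were at least 2-fold higher in mixed than in endothelial barcodes, against 2.64% of all genes. The median log2 ratio of the 19 was 1.14. Myl9, a regulatory myosin light chain, had 203 against 6.55 CPM (3.07), Tpm2, a tropomyosin, 173 against 4.68 CPM (2.97) and Cald1, which binds actin, 520 against 182 CPM (1.42). Myl6 and Crip1, which are widely expressed, had ratios of -0.15 and 0.21. Genes that mark mature smooth muscle were seen to different extents. Myh11, the smooth muscle myosin heavy chain, had 113 CPM against 11.2 CPM in endothelial barcodes (2.09) and was seen in 80 of 143 mixed barcodes (55.9%, or 9.15% after thinning). Acta2, smooth muscle actin, had 81.4 CPM and was seen in 24.5%, and Tagln had 80.2 CPM and was seen in 30.8%. Cspg4 was seen in 46.9%. Cnn1, Actg2, Pln and Myocd had 0 UMIs in mixed barcodes.

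Of the Notch genes outside the rule, 12 were tested, at a median log2 ratio of 0.03. In mixed barcodes 1 of the 12 was at least 2-fold higher, too few to set apart from the 2.64% of all genes. This was Heyl, a Notch target of mural cells, with 44.8 against 1.87 CPM (1.57). The receptor Notch1 (246 against 196 CPM) and the ligand Dll4 (179 against 205 CPM) had similar levels in both sets, as did the target Hes1 (275 against 328 CPM). On the PDGF and angiopoietin axis, 3 of 16 tested genes were at least 2-fold higher, at a median of -0.16. They were Pdgfrb, the sphingosine phosphate receptor S1pr3 (61.9 against 3.74 CPM) and the ligand Pdgfa (59.6 against 12.2 CPM). The ligand Pdgfb was at 129 CPM in mixed and 188 CPM in endothelial barcodes, and the VEGF receptor Flt1 and the coreceptor Eng at 1100 and 462 CPM, against 1204 and 510 CPM. Pdgfra, the receptor typical of fibroblasts, had 1 UMI in mixed and 0 in low-endothelial barcodes, against 333 CPM in fibroblast barcodes.

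Among genes for vessel tone, several receptors and enzymes of cyclic GMP signalling were higher in mixed barcodes. The endothelin, nitric oxide and calcium list had a median log2 ratio of 0.07, against 0.03 for all genes. In mixed barcodes 6 of its 14 tested genes were at least 2-fold higher, against 2.64% of all genes. Besides both guanylate cyclase subunits they included Rgs4, a relative of Rgs5 (97.9 against 3.74 CPM, 2.31), and Agtr1a, the angiotensin II receptor (94.4 against 1.87 CPM, 2.39). Pde3a and Pde5a, which break down cyclic nucleotides, had ratios of 1.53 and 1.09. Ednra, the endothelin receptor of contractile cells, had 49 UMIs in mixed barcodes and 0 in endothelial barcodes, and Nos3, which makes nitric oxide in endothelium, had 53.1 and 80.4 CPM.

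Of the basement membrane genes, 15 were tested, at a median log2 ratio of 0.18. In mixed barcodes 1 of the 15 was at least 2-fold higher, too few to set apart from the 2.64% of all genes. This was Lama2, a laminin chain (62.5 against 0.935 CPM), whereas Sparc (0.49), Col4a1 (0.41), Col4a2 (0.27) and Nid1 (0.56) lay below 2-fold. Of the fibrillar collagens and interstitial matrix genes, 12 of 18 tested were at least 2-fold higher and 0 lower, at a median of 2.23. Postn, which encodes the matricellular protein periostin, had the highest ratio of all genes named by rule, with 606 CPM against 9.35 CPM (4.42). Col3a1 had 529 against 30.9 CPM (3.43), Mgp, an inhibitor of calcification, 761 against 96.3 CPM (2.75) and Timp3, a protease inhibitor, 2150 against 1160 CPM (0.88), which is inside 2-fold. The type VI collagen genes Col6a1 (3.42), Col6a2 (3.06) and Col6a3 (3.01) had ratios between those of Col3a1 and Mgp. Fibroblast barcodes held more of the list as a whole, 27223 CPM against 5863 in mixed, 10465 in low-endothelial, 1638 in endothelial, 1609 in macrophage and 1639 in T cell barcodes.

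Fibroblast genes were seen to different extents in mixed barcodes. Lum had 2 UMIs, Dpp4 2 and Pi16 0 over the 1695479 UMIs of mixed barcodes, while Dcn was held below 10 per barcode by the rule. The 5 fibroblast markers outside the rule summed to 90.8 CPM in mixed and 3149 CPM in fibroblast barcodes, and 149 of their 154 UMIs in mixed barcodes were Col1a1. Of further genes that were high in fibroblast barcodes, picked with their values in view, Mfap5 and Loxl1 had 0 and 1 UMIs in mixed barcodes. Cd248 had 63 UMIs, in 26.6% of mixed barcodes, against 0 in endothelial ones, while Fn1 had 36.6 against 8.42 CPM and Fbn1 32.4 against 8.42 CPM. Fibroblast barcodes held these genes at 1631 (Mfap5), 377 (Loxl1), 579 (Cd248), 2525 (Fn1) and 1475 CPM (Fbn1). The part of fibroblast RNA in the matrix genes of mixed barcodes was not tested.

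Of adipogenic genes, 1 of 10 tested was at least 2-fold higher, the transcription factor Ebf2 (63.1 against 3.74 CPM), at a median log2 ratio of -0.14. Fabp4, the fatty acid carrier, had 40976 CPM in mixed, 49515 in endothelial and 24779 in low-endothelial barcodes, against 509 in fibroblast barcodes, and the fatty acid transporter Cd36 had 3429, 3974, 1121 and 10.6 CPM. Lipid handling genes had 0 of 14 at least 2-fold higher (median -0.15), cell cycle genes 0 of 7 (-0.11) and immediate early genes, which respond to tissue dissociation among other stimuli, 0 of 21 (0.16). With 2.64% of all genes past 2-fold, counts of 0 in lists of this size are near the background. Fos, Jun, Junb and Egr1 were at 3933, 2922, 3538 and 3575 CPM in mixed barcodes. Of chemokines and cytokines, 3 of 8 tested were at least 2-fold higher (median 0.13). These were Ccl11, the eosinophil attractant eotaxin (269 against 15 CPM), Cxcl1 (222 against 76.7 CPM) and Il34, a ligand of the CSF1 receptor (54.3 against 1.87 CPM), while Cxcl12 had 721 and 703 CPM.

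The other direction held few genes. The 12 lowest ratios were taken among genes seen in at least 25% of endothelial barcodes. They were those of AY036118, Rsad2, Retn, Tnfsf10, Isg15, H2-Q7, Mmd, Chchd10, Cxcl9, Trp53i11, Sox18 and Efna1. Levels are given for some, picked in view of their values. The interferon-induced genes Rsad2 and Isg15 had 146 against 313 CPM and 172 against 308 CPM in mixed and endothelial barcodes. Cxcl9 had 231 against 368 CPM and the class I gene H2-Q7 178 against 297 CPM. The endothelial transcription factor Sox18 had 101 against 166 CPM. With 20 CPM added, Rsad2 reached a ratio of 0.497, and Isg15, Cxcl9, H2-Q7 and Sox18 ratios of 0.587 to 0.652, which lay inside 2-fold.

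The 11 low-endothelial barcodes were small. They held 593 to 5467 UMIs and 26757 UMIs in all, 4 of them had fewer than 1000 UMIs, and 9 exceeded 5% mitochondrial UMIs, with a range of 4.37 to 26.8%. Their rule UMIs ran from 5 to 49. Over endothelial barcodes, 252 of 3465 genes (7.27%) were at least 2-fold higher and 975 (28.1%) at least 2-fold lower. Over fibroblast barcodes, 983 of 8365 genes (11.8%) were higher and 2074 (24.8%) lower by the same measure. At this depth a gene with 1 UMI already stands at 37.4 CPM.

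The 12 genes with the highest ratios of low-endothelial over endothelial barcodes were Postn, Aspn, Cygb, Kcnj8, Abcc9, Myl9, Gucy1a1, Pdgfrb, Rgs5, Ccl11, Meg3 and Mnd1. Mixed barcodes were set against the same endothelial barcodes, so both rankings share that set. Postn had 50 UMIs there (1869 CPM), Cygb, a globin of fibroblasts and stellate cells, 58 UMIs (2168 CPM) and Ccl11 29 UMIs (1084 CPM). Mnd1 had 22 UMIs in low-endothelial and 380 UMIs in mixed barcodes (224 CPM), against 8.42 CPM in endothelial and 7.34 CPM in fibroblast barcodes. Over fibroblast barcodes the list held Rgs5, Abcc9, Kcnj8, Art3, Higd1b, Ndufa4l2 and Cox4i2 together with Fabp4, Car3, Cd36 and Cd300lg, which endothelial barcodes also carried at 49515, 651, 3974 and 1211 CPM. Residual endothelial markers summed to 860 CPM in low-endothelial barcodes, against 7320 CPM in endothelial and 5425 CPM in mixed ones. Meg3, a long noncoding RNA, had 598 CPM there and 641 CPM in fibroblast barcodes.

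Clustering without the rule genes placed most members together. A single cluster of 148 barcodes held 110 members, or 71.4% of all members (63.6 to 78.4%), and members made up 74.3% of it. Its leading genes were Hbb-bs, Rgs5, Kcnj8, Abcc9, Ndufa4l2 and Gucy1a1, its median barcode held 11376 UMIs, and its median member held all 4 rule genes. A further 43 members fell into an endothelial cluster of 272 barcodes led by Cldn5, Gpihbp1 and Egfl7, where the median member held 2 rule genes. Hbb-bs, a red cell haemoglobin, was seen in 27.5% of LFD and 25% of HFD mixed barcodes.

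Mural barcodes took a larger share of the HFD library. They made up 5.30% of LFD barcodes (4.03 to 6.83%) and 8.77% of HFD barcodes (7.18 to 10.6%), a log2 ratio of 0.73 (0.27 to 1.19). Mixed barcodes were 4.82 and 8.24% of the libraries, and low-endothelial barcodes 0.473 and 0.537%. Endothelial barcodes below the mural threshold were 9.27 and 10.3%, a log2 ratio of 0.15 (-0.22 to 0.52). Among all mixed and endothelial barcodes, mixed ones were 34.2% on LFD (26.7 to 42.4%) and 44.4% on HFD (37.6 to 51.5%), a log2 ratio of 0.38 (-0.01 to 0.77). With 1 library per diet, a difference between diets cannot be told apart from one between dissociations or captures.

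Mixed barcodes of both diets were compared next, and the levels of the rule genes there are in part set by the rule, which applied to both diets alike. Mixed barcodes had a median depth of 13270 UMIs on LFD (51 barcodes) and 9029 on HFD (92 barcodes). Of 5073 genes with at least 50 UMIs, 42 (0.828%) were at least 2-fold higher on HFD and 40 (0.788%) at least 2-fold lower, or 73 and 66 with CPM averaged over barcodes. Rgs5 was at 1815 CPM on LFD and 1707 on HFD, a ratio of 0.941 (0.875 to 1.01), and Kcnj8 at 376 and 365 CPM, a ratio of 0.969. Abcc9 had a ratio of 1.20 (1.02 to 1.42) and Notch3 of 0.828 (0.661 to 1.04). Pdgfrb was at 223 and 271 CPM, a ratio of 1.22 (0.999 to 1.49), and was seen in 70.6% of LFD and 73.9% of HFD mixed barcodes, or 21.6 and 24.2% after thinning. Of the pericyte genes outside the rule, 0 of 23 tested reached 2-fold in either direction, at a median log2 ratio of 0.04, and at these shares of all genes a count of 0 is near the background.

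Higd1b had the highest diet ratio among the 8 pericyte genes. Its level was 146 CPM (120 to 176) on LFD and 227 CPM (198 to 260) on HFD, a ratio of 1.56 (1.23 to 1.98). It was 1.53 without the barcode that held most of its UMIs. The share of mixed barcodes with a UMI of Higd1b was 66.7 and 69.6%, or 11.8 and 19.8% after thinning. Cox4i2 (0.945) and Ndufa4l2 (1.03) had ratios near 1, while the common form Ndufa4 was at 348 and 210 CPM, a ratio of 0.604 (0.50 to 0.729). Contractile genes had 0 of 19 past 2-fold (median -0.01), which with 0.828 and 0.788% of all genes past 2-fold is near the background, with Myh11 at 0.989, Tagln at 0.779 and Acta2 at 1.14 (0.803 to 1.63). For Acta2 the share of mixed barcodes with a UMI was 37.3% on LFD (24.1 to 51.9%) and 17.4% on HFD (10.3 to 26.7%), or 7.84 and 4.40% after thinning, and its ratio was 0.841 without the HFD barcode that held 22 of 81 UMIs. The smooth muscle markers summed to 281 CPM on LFD and 270 on HFD and the endothelial markers to 5542 and 5331 CPM.

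Postn and Ccl11 were higher in HFD than in LFD mixed barcodes. They were 2 of 41 genes outside the rule that were at least 4-fold higher in mixed than in endothelial barcodes. The other genes of the 41 lay inside 2-fold between diets, and of all genes 0.828% were at least 2-fold higher on HFD. These 41 were chosen on mixed barcodes pooled over both diets, of which HFD held more UMIs, so the choice favours genes that are high on HFD and the 41 are only described. Postn had 208 UMIs on LFD (276 CPM, 239 to 316) and 820 UMIs on HFD (872 CPM, 813 to 933), a ratio of 3.16 (2.71 to 3.70). Over single barcodes its median was 1.78 per 10000 UMIs on LFD, with the middle of the distribution from 0 to 4.13, and 7.90 on HFD, from 1.76 to 13.7. It was seen in 66.7% of LFD (52.1 to 79.2%) and 79.3% of HFD mixed barcodes (69.6 to 87.1%), in 13.7 and 46.2% after thinning and in 0 of 83 T cell barcodes. Ranges of single barcodes overlapped between diets, as both libraries held barcodes without Postn.

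Ccl11 had a similar size of difference. It had 77 UMIs on LFD (102 CPM, 80.5 to 127) and 379 on HFD (403 CPM, 363 to 446), a ratio of 3.95 (3.08 to 5.11), or 3.79 without the barcode with most UMIs. It was seen in 51 and 71.7% of mixed barcodes, or 15.7 and 25.3% after thinning, and in 1.20% of T cell barcodes. In fibroblast barcodes the ratios were 4.02 (3.58 to 4.52) for Postn and 1.37 (1.30 to 1.43) for Ccl11, at 1049 and 1435 CPM of Ccl11 on LFD and HFD. Endothelial barcodes held 2 and 8 UMIs of Postn and 3 and 13 of Ccl11. In low-endothelial barcodes Postn had 26 UMIs on LFD and 24 on HFD, a ratio of 1.72 (0.947 to 3.12), and Ccl11 12 and 17 UMIs, a ratio of 2.64 (1.19 to 6.07).

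**Figure D5:**
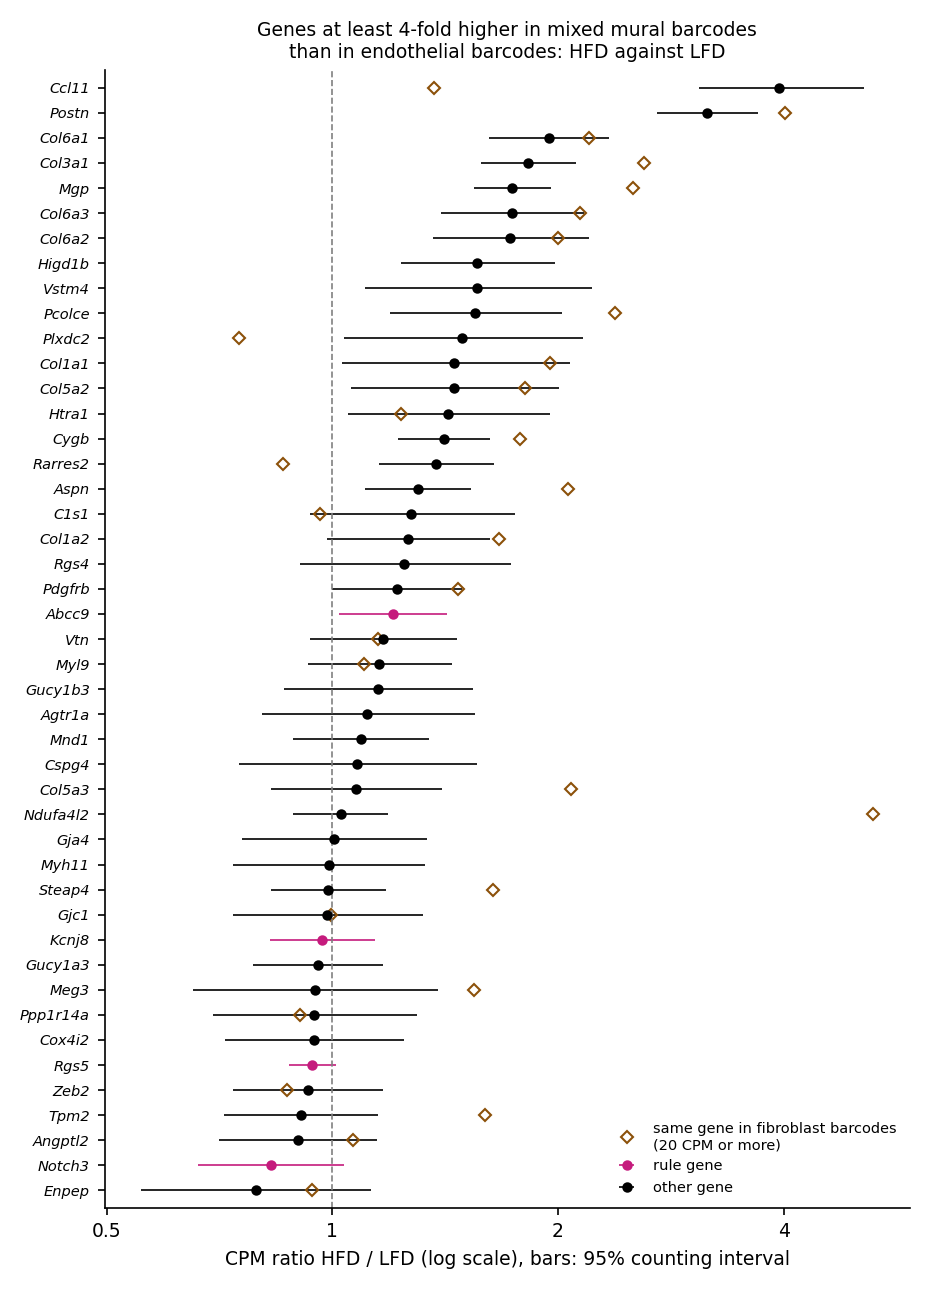
Ratio of CPM on HFD over LFD (horizontal axis, log scale) with 95% counting intervals, for genes at least 4-fold higher in mixed mural than in endothelial barcodes (vertical axis), with open diamonds for the ratio in fibroblast barcodes and older symbols for Gucy1a1 and Gucy1b1 (Gucy1a3, Gucy1b3). Ccl11 (3.95) and Postn (3.16) lie past 2-fold and the other genes within it in mixed barcodes, down to Enpep at 0.791.

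The interstitial matrix genes mostly had ratios above 1 without reaching 2-fold. All 17 tested had a ratio above 1 in mixed barcodes, against 52.5% of all genes, at a median log2 ratio of 0.60. Of the 17, 3 were at least 2-fold higher, namely Postn, Fn1 and Fbn1, against 0.828% of all genes. Fn1 had 15 and 47 UMIs and Fbn1 14 and 41. Col6a1 had a ratio of 1.94 (1.62 to 2.34), Col3a1 of 1.82 (1.58 to 2.11), Mgp of 1.74 and both Col6a2 and Col6a3 of 1.73. The intervals of Col1a2 (1.26, 0.983 to 1.62) and Col5a3 (1.08, 0.827 to 1.40) took in 1. In fibroblast barcodes 21 of 24 tested had a ratio above 1, against 46.3% of all genes, at a median of 0.91, and in endothelial barcodes 3 of 4 did, against 51.3%, at a median of 1.26. Col3a1 had a ratio of 2.61 and Mgp of 2.52 in fibroblast barcodes. The 5 fibroblast markers outside the rule summed to 75.5 CPM on LFD and 103 CPM on HFD in mixed barcodes, and 4 of the 5 were seen. Pdgfra had 1 UMI on LFD and 0 on HFD. The part of fibroblast RNA in these ratios was not tested.

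Of the basement membrane genes, 12 of 14 were above 1 in mixed barcodes, against 52.5% of all genes, at a median log2 ratio of 0.24. In endothelial barcodes 7 of 10 were, at a median of 0.43, and in fibroblast barcodes 8 of 18, at a median of -0.06. In mixed barcodes 2 of the 14 were at least 2-fold higher, against 0.828% of all genes. These were Col18a1, the source of endostatin, with 19 and 69 UMIs (25.2 and 73.4 CPM, 2.91, 1.73 to 5.13) and Lama2 with 26 and 80 UMIs (2.47, 1.57 to 4.01). Sparc had a ratio of 1.31 and Col4a1 of 1.22. Of 16 tested genes of the PDGF and angiopoietin axis, Pdgfa alone reached 2-fold, with 27 and 74 UMIs (2.20, 1.40 to 3.56). All 5 chemokine genes tested were above 1, with Cxcl1 at 1.54 and Cxcl12 at 1.13. Notch genes had 4 of 10 above 1 at a median of -0.10, and immediate early genes 8 of 21 at a median of -0.03, with Fos at 0.790.

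The highest ratios on HFD came in part from single barcodes. Ccl21a (0 and 428 UMIs), Mmrn1 (0 and 92) and Lyve1 (5 and 99) are genes of lymphatic endothelium, and 1 HFD barcode with 28828 UMIs held 604 of their 619 UMIs on HFD. Its only rule gene was Kcnj8, with 5 UMIs, and it was the only member without Rgs5. Creb5, a transcription factor, had 14 and 68 UMIs (18.5 and 72.3 CPM, 3.90), spread over 11 and 38 barcodes. Stmn1, which regulates microtubules, had 31 and 111 UMIs, a ratio of 2.87 that became 1.92 without the barcode holding 39 of them. The cycling markers Mki67, Top2a and Cdk1 summed to 7.95 CPM on LFD and 43.6 CPM on HFD, where 30 of 41 UMIs stood in 1 barcode.

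The 8 genes with the lowest ratios on HFD included several of adipocytes. Cfd, the adipocyte complement factor adipsin, had 394 UMIs on LFD and 22 on HFD (522 and 23.4 CPM, 0.0448). Scd1 had 551 and 55 UMIs, a ratio of 0.0801 or 0.156 without 1 LFD barcode that held 276. The lipid synthesis genes Fasn (0.134) and Agpat2 (0.247), the secreted Retn (0.172) and Rbp4 (0.222), Cdo1 (0.174) and Trf (0.229) completed the 8 lowest. In endothelial barcodes, where 25 of 3397 genes (0.736%) were at least 2-fold higher and 51 (1.5%) lower, these 8 genes had ratios from 0.0629 for Cfd to 0.408 for Agpat2. The adipocyte markers Adipoq, Plin1 and Cidec summed to 179 and 116 CPM in mixed barcodes, and their part in these ratios was not tested.

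Diet values of the 11 low-endothelial barcodes rest on 17423 UMIs over 5 barcodes on LFD and 9334 over 6 on HFD. Of 46 genes with at least 50 UMIs, 5 (10.9%) were at least 2-fold higher on HFD and 2 (4.35%) lower. The naming rule took Eef1a1, a translation factor (2.25), and Gsn (0.406) and Actb (0.487), both of the actin cytoskeleton. Rgs5 had 97 and 39 UMIs (5567 and 4178 CPM, a ratio of 0.750, 0.504 to 1.10), and Pdgfrb 15 and 8 UMIs (861 and 857 CPM). Kcnj8 had 25 and 2 UMIs, a ratio of 0.149 (0.0171 to 0.599), and Abcc9 21 and 9 UMIs, a ratio of 0.800 (0.323 to 1.82). Mgp had 32 and 5 UMIs (0.292), all those on LFD in 1 barcode, and Aspn 32 and 7 UMIs (0.408).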

How the data were processed

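The deposited files hold raw UMI counts per gene and barcode, which the authors made from 10x Chromium 3′ libraries of eWAT stromal vascular cells with Cell Ranger on the mm10 genome. The header of the matrices names version 3.0.2. Barcodes beyond the limits given in the study's methods (200 to 2500 genes, less than 5% mitochondrial UMIs) are present, and 13 of the 154 mural barcodes passed those limits, so all barcodes with at least 200 genes were used. The members and gene lists were chosen with earlier results of these data known. Comparison sets used the same limits. Endothelial barcodes had at least 3 UMIs of Cdh5 and Cldn5, fibroblast barcodes at least 10 of Dcn, macrophage barcodes at least 10 of C1qa, C1qb and C1qc and T cell barcodes at least 3 of Cd3d, Cd3e and Cd3g. Each set stayed below the limits of the others and below 5 mural UMIs.

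Counts were summed over the barcodes of a set and divided by all their UMIs (CPM). Genes entered a comparison with at least 50 UMIs. Ratios between sets had 20 CPM added to each side, and those between diets had none. Intervals cover counting error only, the barcodes of a library not being replicates. Shares of barcodes with a UMI were repeated after thinning to 1000 UMIs, which left out 1 of 143 mixed and 4 of 11 low-endothelial barcodes. Barcodes were clustered in scanpy 1.11.5 (2000 variable genes without the rule genes, 40 components, 15 neighbours, Leiden at resolution 0.9), and Scrublet was run at an expected rate of 1%. Named were the rule genes and Pdgfrb, up to 4 members of each list by level in low-endothelial barcodes, the 12 highest ratios over endothelial and over fibroblast barcodes among genes seen in at least 25% of the barcodes, and up to 8 genes in each direction between diets that were at least 2-fold with an interval leaving out 1. Mitochondrial, ribosomal, haemoglobin, Y-linked and Xist genes were not named by this rule. The same rule was applied to mixed barcodes after the counts had been seen. Further genes named in the text were picked with their values in view. Gucy1a1 and Gucy1b1 are listed under older symbols, and Cebpd and Trac were not analysed here. The ratio intervals were tested on counts simulated from the pooled totals of the sets. These counts hold no spread between barcodes or libraries, so that test bears on counting error only. Python 3.11.15, numpy 2.4.6, pandas 2.3.3, scipy 1.17.1 and matplotlib 3.10.9 were used. Alternatives were other UMI thresholds, CPM averaged over barcodes, thinning, doublet removal, the study's limits and other cluster resolutions.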

Additional observations from a re-analysis of the deposited data

Results flagged for a closer look

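Some genes had diet ratios on opposite sides of 1 in mixed mural and in endothelial barcodes, each with a 95% counting interval that left out 1. With 1 library per diet the difference was not tested. The ratio of HFD over LFD was 0.835 in mixed and 1.20 in endothelial barcodes for Myl6, a myosin light chain, and 0.910 and 1.08 for Actb. It was 1.11 and 0.876 for Timp3, 1.18 and 0.795 for Lpl, which releases fatty acids from lipoproteins, and 1.18 and 0.681 for Gsn. Insig1, which restrains sterol synthesis, had 0.415 in mixed barcodes and 2.24 in endothelial ones, with 29 and 15 UMIs on LFD and HFD in the first and 11 and 23 in the second, below the 50 UMIs asked of genes in the counts of the report.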

How the results depend on the processing

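No paired analysis was possible because each diet has 1 library. Of the main results, 30 values under alternatives were classed as the same and 28 as moved, and 0 reversed. Of the single genes and list medians, 71 were classed as the same and 2 as moved. The class of the same was broad. It took in 186 and 122 members at 3 and 10 rule UMIs against 154. It also took in 1420 genes over fibroblast barcodes at 20 UMIs per gene against 983. The log2 ratio of shares under the study's limits, 0.91 (-0.77 to 2.59), was in it too. Under the study's limits 13 mural barcodes remained, with Pdgfrb at 327 CPM (294 with CPM averaged over barcodes, 259 as pooled over all mural barcodes), and at least 2-fold higher were 90 genes over endothelial barcodes, 430 over fibroblast barcodes and, in mixed barcodes, 14 over endothelial ones. The log2 ratio of shares was 0.18 in low-endothelial barcodes alone. The share of members with endothelial UMIs was 98.1% from 1 UMI, 85.7% from 10 UMIs and 70.5% after thinning. With at least 20 or 100 UMIs per gene, 681 and 85 genes were higher in low-endothelial than endothelial barcodes, and 112 were higher in mixed barcodes at 100 UMIs. Between diets, low-endothelial barcodes had 21 and 1 genes higher and 18 and 1 lower at 20 and 100 UMIs, 9 higher and 4 lower with averaged CPM, and 39 and 41 with all mural barcodes. Mixed barcodes had 191 and 17 higher and 165 and 10 lower, or 73 and 66 with averaged CPM. A change in the UMI limit changes how many genes are tested; the cause of the other changes was not tested. At resolution 1.5 the main mural cluster held 61.7% of members. Mgp had a diet ratio of 1.53 without its top barcode and Kcnj8 of 0.799 with averaged CPM. Alternatives on mixed barcodes were chosen after seeing the data. The low-endothelial set holds 26757 UMIs in all.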

Other observations

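Kcnj8 was also present in T cell barcodes, at 9 UMIs (25.5 CPM) in 9.64% of 83 barcodes, where Rgs5 had 1 UMI and Abcc9 and Pdgfrb had 0. At resolution 1.5 a cluster of 21 barcodes led by Hbb-bs, Hba-a1 and Hba-a2 split off, of which 10 were mural members with a median of 4 rule genes in the cluster. B cell markers in LFD mixed barcodes, 12 UMIs in all, stood in 1 barcode. Edn1, which encodes endothelin-1, had 4 UMIs on LFD and 33 on HFD in mixed barcodes, and 11 and 25 in endothelial ones. Ndufa4l2, with a diet ratio of 1.03 in mixed barcodes, had 27 UMIs on LFD and 109 on HFD in fibroblast barcodes (8.54 and 45 CPM), a ratio of 5.27 (3.43 to 8.35) spread over 20 and 63 barcodes. Whether both ratios differ was not tested.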
